A study of Arabidopsis thaliana with 5 samples.

Results

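The xyloglucan endotransglucosylase/hydrolases (XTH) of Arabidopsis thaliana are a family of 33 genes, and all 33 had a probe among the 25433 genes matched on the arrays. Members were taken by family name and locus, without a cut on measured values, TCH4 being the name in use for XTH22. Earlier results of these data were known when the family was chosen. Expression was measured in cotyledons, the seed leaves, of 7-day-old seedlings of a mutant line labelled ckg (3 arrays) and of the wild type Col-0 (2 arrays), all grown in long days of 16 h light and 8 h dark. A genotype field of the mutant samples reads cgr. From outside knowledge the line was taken to be mutant in AT5G50915, named CKG (cytokinin-responsive growth regulator), which codes for a transcription factor of the basic helix-loop-helix class. The allele, the position of its lesion and the number of lines are not given in the sources used here.

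Xyloglucan is a glucan with short side chains that coats and tethers cellulose microfibrils in the primary wall of growing plant cells. XTH enzymes cut the xyloglucan backbone and either join the new end to another chain (endotransglucosylase activity) or let water take it (hydrolase activity), so that they are known both for loosening and for strengthening walls. Most members act as endotransglucosylases. By sequence the family falls into group I (XTH1 to XTH11), group II (XTH12 to XTH26, TCH4 included) and group III, whose branch IIIA (XTH31 and XTH32) is known for hydrolase-type enzymes and whose branch IIIB holds XTH27 to XTH30 and XTH33. Many members are best known from roots and others from shoots.

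Values are given as relative signal, the processed spot signal scaled so that the 75th percentile of each array is 1000. Probes differ in brightness for the same amount of RNA, so a signal is set only against the same probe on other arrays. Background set a higher limit on ckg replicate 3, where 52.4% of non-control spots exceeded it clearly, than on ckg replicates 1 and 2 (68.4% and 70.0%) and the Col-0 arrays (66.7% and 68.7%). The lowest relative signal called well above background was 70.5 on ckg replicate 3 and 5.91 to 8.01 elsewhere, so a dim gene could be missed there alone. The ckg arrays lay on slide 2 and the Col-0 arrays on slide 1, and the 2 factors cannot be told apart. AT5G50915 was well above background on 0 of 3 ckg arrays and 2 of 2 Col-0 arrays. Its signal was 29.6-fold lower in ckg, with each ckg array at its lowest called signal, or at the probe's own if greater. This is a nominal bound, since some probes above that lowest signal were not called. Of the markers of green cotyledon tissue, 5 of 5 were above background on every array, with summed relative signals of 469974 to 554380 in ckg and 493000 to 529394 in Col-0. Markers of the shoot apex (4 genes) and of dry seed (3 genes) were above background on no array.

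Cotyledons of both genotypes expressed much of the family clearly, as 17 of the 33 genes were well above background on all 5 arrays. These were XTH4 to XTH9 of group I, XTH16, XTH18, TCH4, XTH23, XTH24 and XTH25 of group II, and XTH27, XTH28, XTH30, XTH31 and XTH33 of group III. A further 7 genes were above background on no array: XTH1, XTH2 and XTH3 of group I, XTH12, XTH14 and XTH26 of group II, and XTH29 of branch IIIB. XTH14 and XTH26 are known from root hairs. For these 7 the relative signals ran from 1.41 to 86.1 in ckg and from 1.58 to 12.1 in Col-0, and the highest ckg value of each was on replicate 3, the array with the high background limit. The remaining 9 genes were above background on part of the arrays. Counting members by array, 25, 26 and 17 were above background on ckg replicates 1, 2 and 3, and 22 on each Col-0 array.

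**Figure D1:**
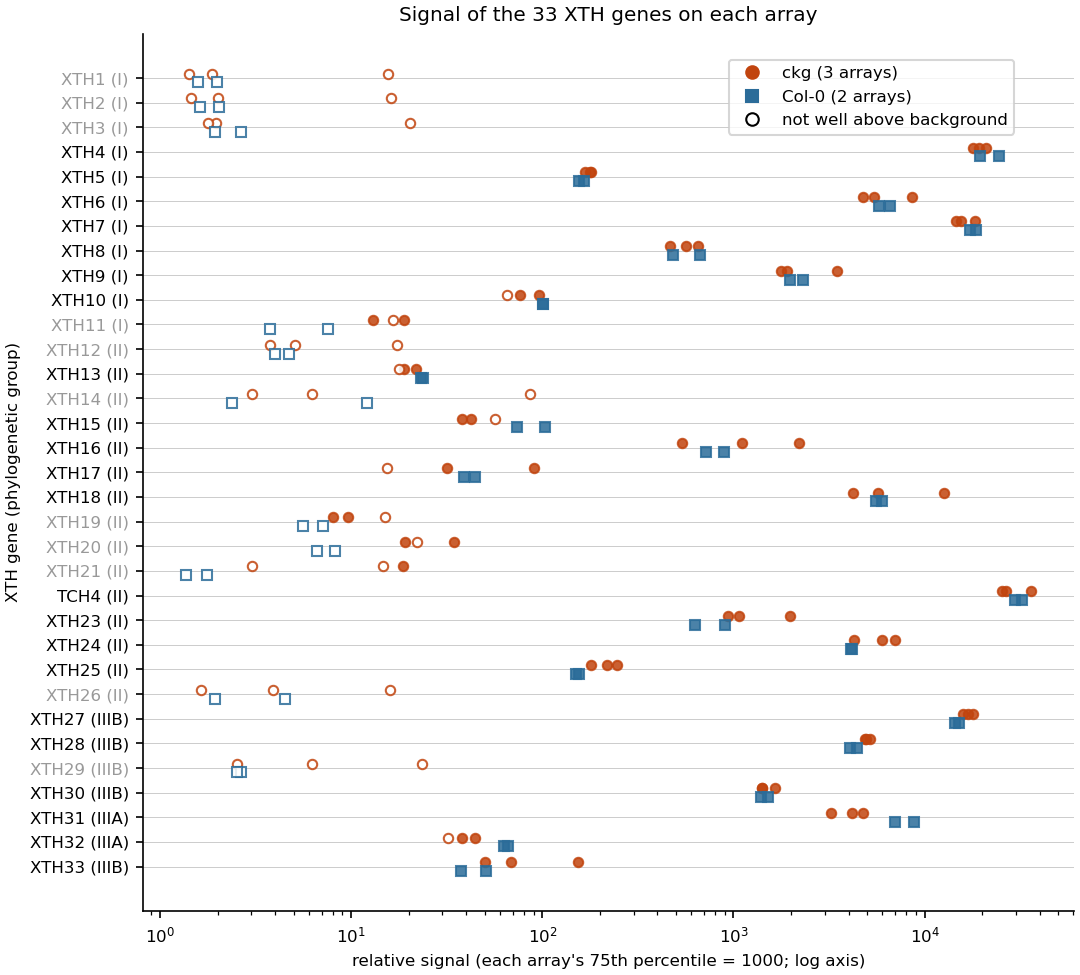
Relative signal of the 33 XTH genes (down the page, with phylogenetic group) on 3 ckg arrays (circles) and 2 Col-0 arrays (squares), on a log axis where the 75th percentile of each array is 1000. Open symbols are spots not well above background, and grey names are genes that were not tested. The open ckg circles to the right among the 7 genes below background on every array are replicate 3.

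The comparison of ckg with Col-0 asks which family members differ when the growth regulator gene is mutated. Testing required a probe clearly above background on all arrays of ckg, of Col-0 or of both, a condition met by 22 XTH genes and by 18123 genes in all. By limma's moderated test with Benjamini-Hochberg adjustment over the 18123 genes, 0 XTH genes passed an adjusted p of 0.05, the lowest adjusted p in the family being 0.140, and 0 genes passed in all (percent called 0 in either direction). An unadjusted p under 0.05 was reached by 1 XTH gene with higher signal in ckg (XTH25) and 3 with lower signal (XTH31, XTH32 and XTH15), together 4 members among the 22. Over all genes tested, 8.30% were at that level and higher and 9.81% were at that level and lower, 18.1% together, which is close to the share in the family.

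The family had no common direction. Of the 22 tested members 11 had higher and 11 had lower signal in ckg, beside 48.7% higher and 51.3% lower over all genes. The median log2 difference, ckg minus Col-0, was 0.0050 in the family and -0.0097 over all genes, and the family median turned negative with scaling by the median (-0.0078) and with the authors' series table (-0.028). In 6 members every ckg array lay above every Col-0 array and in 5 every ckg array lay below, 11 of 22. Of the 17898 genes with a value on all 5 arrays, 19.5% and 22.6% did so, 42.1% together. With the mean of a gene's probes in place of the brightest, 5 members lay above and 5 below. The share over all genes was not computed for that setting.

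These counts depend on how a member passed the filter. XTH10, XTH13, XTH15, XTH17 and XTH32 passed through the Col-0 arrays alone, because each was above background on ckg replicates 1 and 2 and on both Col-0 arrays but not on ckg replicate 3. All 5 had lower fitted signal in ckg. Without ckg replicate 3, XTH17 was higher in ckg (0.37) and the others stayed lower. Over all genes 2865 passed through the Col-0 arrays alone, of which 57.6% were lower in ckg, and 12 passed through the ckg arrays alone, of which 100% were higher. Among the 17 members above background on every array, 11 were higher and 6 lower, with a median log2 difference of 0.13, against 49.8% higher, 50.2% lower and a median of -0.0014 over the 15246 genes that met the same condition. In 6 of the 17 every ckg array lay above every Col-0 array and in 1 every ckg array lay below, where 20.7% and 22.3% of 15021 such genes did so. An unadjusted p under 0.05 was reached by 1 higher and 1 lower member, beside 8.34% and 9.03% of the 15246 genes.

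**Figure D2:**
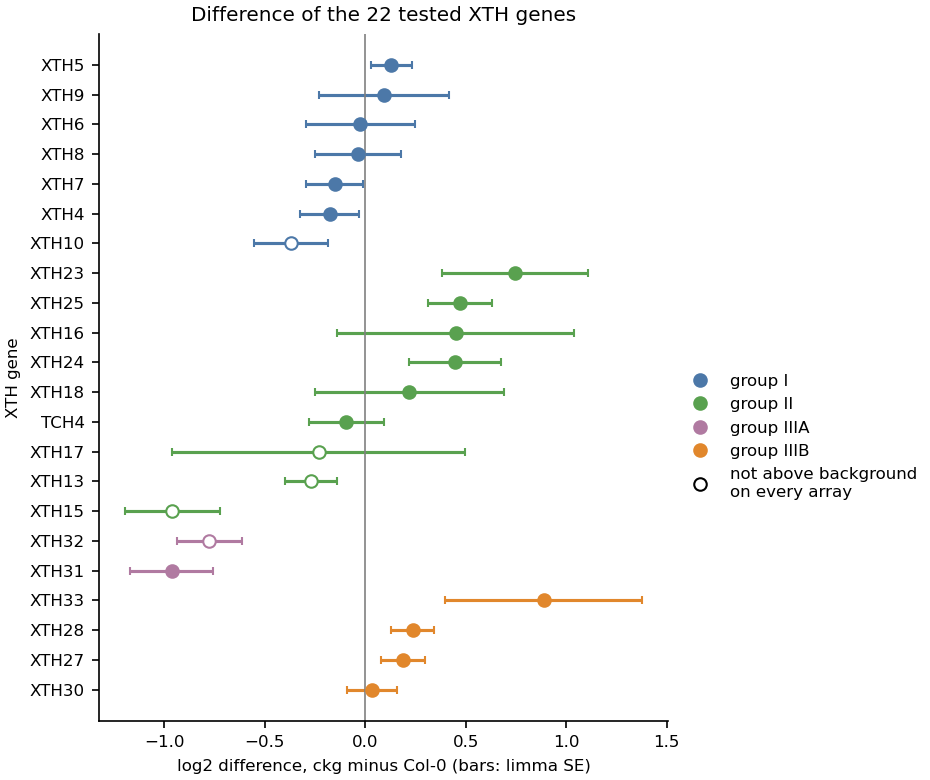
Log2 difference, ckg minus Col-0, of the 22 tested XTH genes, with bars for the limma SE and colours for the phylogenetic group. Open circles are the 5 genes that were not above background on ckg replicate 3. Both IIIA genes lie left of 0 and the 4 tested IIIB genes right of 0, XTH30 only just.

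Both members of branch IIIA had lower signal in ckg, and theirs were the smallest adjusted p-values of the family. XTH31 is an enzyme with hydrolase activity that is also known for its part in aluminium sensitivity of roots. Its relative signal was 4786, 3252 and 4165 on ckg replicates 1, 2 and 3 and 6994 and 8758 on Col-0 replicates 1 and 2. The 3 ckg arrays lay well below both Col-0 arrays. The log2 difference was -0.96 ± 0.21 (limma SE, 95% interval -1.49 to -0.44), a 1.95-fold lower signal, with a limma adjusted p of 0.142. Only 1 probe measured it, and 96.9% of all genes tested differed by less. The difference ran from -1.12 to -0.80 when 1 array at a time was left out.

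XTH32, the other IIIA member, differed in the same direction. Its relative signal was 44.4, 37.8 and 32.2 on the ckg arrays and 66.4 and 63.0 on the Col-0 arrays. Again no ckg array reached a Col-0 array, although the ckg replicate 3 value was itself not above background. The log2 difference was -0.77 ± 0.16 (95% interval -1.19 to -0.36), a 1.71-fold lower signal, with a limma adjusted p of 0.140. Without ckg replicate 3 it was -0.66, and with normexp background correction, applied to the raw median signals, -0.51.

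In branch IIIB the 4 tested members, XTH27, XTH28, XTH30 and XTH33, all had higher fitted signal in ckg, with a median of 0.21. XTH28, known for its part in the growth of stamen filaments, had relative signals of 4915, 5183 and 4880 in ckg and 4435 and 4051 in Col-0. Every ckg array lay above both Col-0 arrays, and the difference was 0.24 ± 0.11 (limma adjusted p = 0.311). XTH27, known from developing veins of leaves, gave 16897, 15898 and 17920 in ckg and 14406 and 15224 in Col-0. These groups did not overlap either, at a log2 difference of 0.19 ± 0.11 (limma adjusted p = 0.407), and the other probe of the gene gave 0.14. XTH30 lay near 0 (0.03 ± 0.12), and its sign turned without ckg replicate 3 (-0.04).

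XTH33, a member known to be anchored at the plasma membrane, had the highest fitted difference of the tested members and one of the widest spreads among ckg arrays. Its relative signal was 50.3, 68.5 and 153 in ckg and 50.6 and 37.7 in Col-0. Replicate 3 was more than 2-fold above the other ckg arrays, and ckg replicate 1 lay just below Col-0 replicate 1, so the groups overlapped. The log2 difference was 0.89 ± 0.49 (95% interval -0.36 to 2.13, limma adjusted p = 0.390), and 0.43 without ckg replicate 3. No test was made of the difference between branches IIIA and IIIB.

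Group II, the largest group, had members on both sides of 0. Of its 15 genes 9 were tested, 5 with higher and 4 with lower signal in ckg. XTH15, a gene induced in shade and known for its part in petiole elongation, was lower. Its relative signal was 38.1, 42.5 and 56.4 in ckg and 73.8 and 104 in Col-0. The groups did not overlap, and the value on ckg replicate 3 was not above background. The log2 difference was -0.96 ± 0.23 (95% interval -1.55 to -0.36), a 1.94-fold lower signal (limma adjusted p = 0.159). It was -0.54 with normexp and -0.59 as the mean of both probes, since a second, dimmer probe gave -0.22 (-0.87 without ckg replicate 3) and was above background on 0 of 3 ckg arrays and 1 of 2 Col-0 arrays.

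XTH25 was the tested member with higher signal in ckg and the smallest error relative to its difference. Relative signals were 180, 218 and 244 in ckg and 151 and 156 in Col-0. All ckg arrays lay above both Col-0 arrays, by 0.47 ± 0.16 on the log2 scale (95% interval 0.07 to 0.87), a 1.38-fold higher signal (limma adjusted p = 0.228). The difference shrank to 0.25 with normexp and 0.19 with the authors' series table, and it was at an unadjusted p over 0.05 without either Col-0 array.

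XTH23 and, by its brightest probe, XTH24 also had higher signal on every ckg array. XTH23, listed as XTR6 in the gene table, had relative signals of 1968, 1072 and 942 in ckg and 626 and 899 in Col-0. Replicate 1 stood apart from the other ckg arrays, and ckg replicate 3 was only slightly above Col-0 replicate 2. The log2 difference was 0.74 ± 0.36 (95% interval -0.18 to 1.67; limma adjusted p = 0.345), and 0.42 without ckg replicate 1 and 0.48 without Col-0 replicate 1. XTH24, first described as the meristem gene MERI5B and also listed as a senescence gene, gave 6008, 4272 and 7032 in ckg and 4168 and 4126 in Col-0. Its lowest ckg array was barely above Col-0. The log2 difference of XTH24 was 0.45 ± 0.23 (95% interval -0.13 to 1.02; limma adjusted p = 0.360), and 0.29 without ckg replicate 3. This gene had 5 probes, and the other 4 gave differences of 0.42, 0.54, 0.40 and 0.34. On the probes at 0.42, 0.40 and 0.34, ckg replicate 2 lay below a Col-0 array, so those groups overlapped.

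TCH4, the touch-induced member that also responds to brassinosteroid and temperature, did not separate the genotypes. Its relative signal was 36248, 26624 and 25342 in ckg and 29722 and 32240 in Col-0. The ckg arrays lay on both sides of Col-0, and the log2 difference was -0.09 ± 0.19 (95% interval -0.57 to 0.38; limma adjusted p = 0.816). Its sign turned without ckg replicate 3 (0.0051) and with the authors' series table (0.0058). XTH13 had relative signals of 21.9, 18.8 and 17.8 in ckg and 23.6 and 23.2 in Col-0. These did not overlap, but replicate 3 was not above background, and the difference of -0.27 ± 0.13 (limma adjusted p = 0.335) became -1.10 with quantile scaling and -0.12 with normexp.

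**Figure D3:**
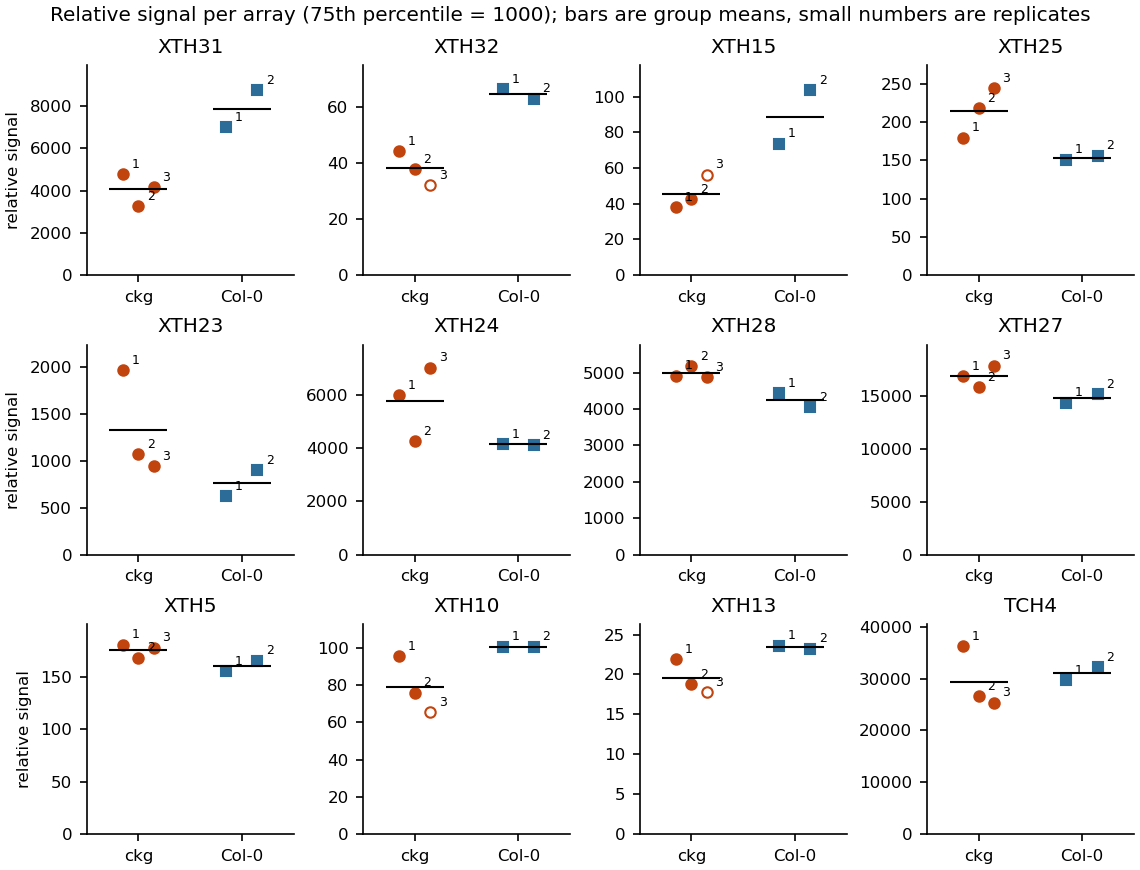
Relative signal (axis from 0, 75th percentile of each array at 1000) of 12 XTH genes on 3 ckg arrays and 2 Col-0 arrays, with replicate numbers beside the points. Horizontal lines are group means, and open symbols are not well above background. Shown are TCH4 and the tested members whose ckg points lie all above or all below the Col-0 points. Other tested members, whose groups overlap, are left out.

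Some group II members differed more among the ckg arrays than between genotypes. XTH18, known from roots, had relative signals of 12643, 5709 and 4226 in ckg and 5556 and 6016 in Col-0. XTH17, which like XTH15 is induced in shade, had 90.0, 31.9 and 15.5 in ckg, the last not above background, and 38.9 and 44.4 in Col-0. XTH16 was highest on ckg replicate 3, with 537, 1112 and 2214 in ckg and 895 and 720 in Col-0. For each of these 3 genes the Col-0 arrays lay inside the range of the ckg arrays. The log2 differences were 0.22 ± 0.47 for XTH18, -0.23 ± 0.73 for XTH17 and 0.45 ± 0.59 for XTH16. Without ckg replicate 3 they were 0.56, 0.37 and -0.06, so XTH17 and XTH16 turned sign. Over the 17 members above background on every array, the median SD of the log2 signal was 0.28 among ckg arrays and 0.09 among Col-0 arrays, against 0.16 and 0.08 over the 15246 genes that met the same condition. Of the 22 tested members 9 had their highest ckg value on replicate 1, 4 on replicate 2 and 9 on replicate 3.

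Group I members differed little between genotypes. Of 7 tested genes 2 were higher and 5 lower in ckg, from -0.37 to 0.13 on the log2 scale with a median of -0.03, and 0 reached an unadjusted p under 0.05 in limma. XTH4, known from growing tissue and the wood-forming zone, had relative signals of 17850, 19368 and 20897 in ckg and 24478 and 19506 in Col-0. The ranges overlapped, at a log2 difference of -0.18 ± 0.15 (95% interval -0.55 to 0.20). XTH9, known from stem vasculature, gave 1769, 1907 and 3472 in ckg and 2299 and 1969 in Col-0, with the only clear departure on ckg replicate 3. XTH6, XTH7 and XTH8 differed by -0.02 ± 0.27, -0.15 ± 0.14 and -0.03 ± 0.21, each with overlapping arrays.

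Only XTH5 and XTH10 of group I had groups that did not overlap. XTH5 had relative signals of 180, 168 and 177 in ckg and 155 and 165 in Col-0. Its difference of 0.13 ± 0.10 (limma adjusted p = 0.531) was -0.062 with the authors' series table. XTH10 had 95.5, 76.0 and 65.3 in ckg, the last not above background, and 101 and 101 in Col-0. The ckg values were lower by 0.37 ± 0.18 (limma adjusted p = 0.348), by 0.24 without ckg replicate 3, by 0.51 without ckg replicate 1, and by 0.58 with the authors' series table.

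A further 4 members were above background only in ckg and were not tested. None reached that level on ckg replicate 3, and XTH21 did not on ckg replicate 1 either. XTH20, known from roots and from the healing of cut stems, had relative signals of 34.4, 19.2 and 22.2 in ckg and 8.24 and 6.60 in Col-0. It was above background on 2 of 3 ckg arrays and 0 of 2 Col-0 arrays. On ckg replicates 1 and 2, the arrays that measured it, the signal was 3.49-fold that of Col-0. This is the measured ratio and not a bound. Both Col-0 signals lay just above the lowest signals called there (8.01 and 6.31) yet were not called, so that limit does not hold for every probe. Below, a nominal bound divides the mean of ckg replicates 1 and 2 by a Col-0 mean. In that mean each array counts with its detection limit, the lowest signal called there, or with the probe's signal if that was greater. A ratio below such a bound is possible, since that limit does not hold for every probe.

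XTH11 had relative signals of 13.0, 18.9 and 16.6 in ckg and 7.52 and 3.74 in Col-0, again above background on ckg replicates 1 and 2 alone. Its nominal bound from those 2 arrays was 2.20-fold higher in ckg. XTH19, which shares the stem-healing role of XTH20, had 9.58, 8.00 and 14.96 in ckg and 7.08 and 5.59 in Col-0. The nominal bound for XTH19 was 1.23-fold higher in ckg from replicates 1 and 2, the arrays that measured it. XTH21, known for its part in root growth, was above background on ckg replicate 2 alone, with 3.01, 18.7 and 14.7 in ckg and 1.75 and 1.36 in Col-0. Its second probe was above background on no array. With 1 array above background for the brighter probe, no fold is given.

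The same detection pattern was uncommon over all genes, though its count describes calls and is no test of a difference. Above background on ckg replicates 1 and 2 and on no Col-0 array were 3 of the 33 XTH genes and 144 of 25433 genes (0.566%). Both totals include genes above background on every array (17 and 15246), which cannot show this pattern. The reverse, above background on both Col-0 arrays and on neither of ckg replicates 1 and 2, held for 0 XTH genes and 22 genes in all (0.0865%). Because several of these members are known from roots, root markers were read beside them. Of 6 root markers 0 were above background on every array, and EXPA7 and RHD6, which mark root hair cells, were above background on none. COBL9 and CASP2 had log2 differences of 0.29 ± 0.17 and 0.25 ± 0.19, with arrays that overlapped, and the summed signal of the 6 was 118.1, 106.5 and 132.7 on ckg replicates 1, 2 and 3 and 79.1 and 105 in Col-0. On ckg replicate 3, which gave the highest sum, 0 of the 6 were above background. Their part in the XTH signals was not tested. In whole cotyledons, fewer cells of a type and less RNA per cell cannot be told apart.

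Several members are neighbours on a chromosome, and differences between neighbours were not tested. On chromosome 4, XTH24, XTH18 and XTH19 lie next to each other, and their values were 0.45, 0.22 and above background in ckg alone. XTH23 and XTH14 are also neighbours there, the first at 0.74 and the second below background throughout, as were XTH1 and XTH2, another pair. On chromosome 5, XTH12, XTH13, XTH25 and TCH4 follow each other with 1 other gene between the first and the second. XTH12 was below background throughout, XTH13 was at -0.27, XTH25 at 0.47 and TCH4 at -0.09. Probe sequences were not used here, so cross-hybridisation between such close copies was not tested. Of the 33 members 6 had several probes, and of their further probes 7 passed the filter, all 7 differing in the direction of the brightest one. Most of these 7 were probes of XTH24, and that of XTH9 was at 0.01. Without ckg replicate 3 both XTH9 probes were negative (-0.21 and -0.15).

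The genes that make and trim xyloglucan were read beside the family that remodels it. Of 16 synthesis genes 15 were tested, 6 with higher and 9 with lower signal in ckg and a median of -0.06, and 0 passed in limma. An unadjusted p under 0.05 was found for 1 higher and 1 lower gene, 13.3% of the 15, beside 18.1% over all genes. AXY4, which acetylates xyloglucan side chains, had relative signals of 2630, 2373 and 2624 in ckg and 1423 and 1839 in Col-0. All ckg arrays were higher, by 0.65 ± 0.15 on the log2 scale (limma adjusted p = 0.152), and a second probe gave 0.48.

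XXT3, one of the xylosyltransferases that start the side chains, was lower in ckg. It had relative signals of 63.5, 73.8 and 80.6 in ckg, the last not above background so that it passed the filter through Col-0 alone, and 118 and 114 in Col-0, a log2 difference of -0.68 ± 0.14 (limma adjusted p = 0.133). Among the 5 synthases of the glucan backbone CSLC6 had the smallest p. Its relative signals were 1053, 1049 and 1025 in ckg and 1168 and 1331 in Col-0, lower on every ckg array, at -0.26 ± 0.11 (limma adjusted p = 0.294). The main xylosyltransferases XXT1, XXT2 and XXT5 lay within 0.08 log2 units of 0, and the galactosyltransferases MUR3 and XLT2 were at 0.20 ± 0.14 and 0.31 ± 0.23.

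The glycosidases that take xyloglucan apart in the cell wall numbered 5, of which 1 was higher and 4 were lower in ckg, with a median of -0.22, and 0 passed in limma. An unadjusted p under 0.05 was reached by 2 of the 5, both lower, beside 9.81% lower over all genes. BGAL10, the beta-galactosidase of xyloglucan, had relative signals of 2263, 2115 and 2033 in ckg and 3840 and 3873 in Col-0. The groups were well apart, at -0.85 ± 0.10 on the log2 scale (95% interval -1.12 to -0.59), a 1.81-fold lower signal with a limma adjusted p of 0.0941. AXY8, the fucosidase, had 2148, 1841 and 2062 in ckg and 2605 and 2955 in Col-0, a difference of -0.46 ± 0.13 (limma adjusted p = 0.182), and a dimmer second probe gave -1.09 with ckg replicate 3, where it was not above background, and -0.47 without it. BGLC3, a beta-glucosidase, had 266, 255 and 219 in ckg and 287 and 287 in Col-0, with a difference of -0.22 ± 0.13 (limma adjusted p = 0.403). These groups did not overlap, while the alpha-xylosidase XYL1 was at 0.01 ± 0.15.

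**Figure D4:**
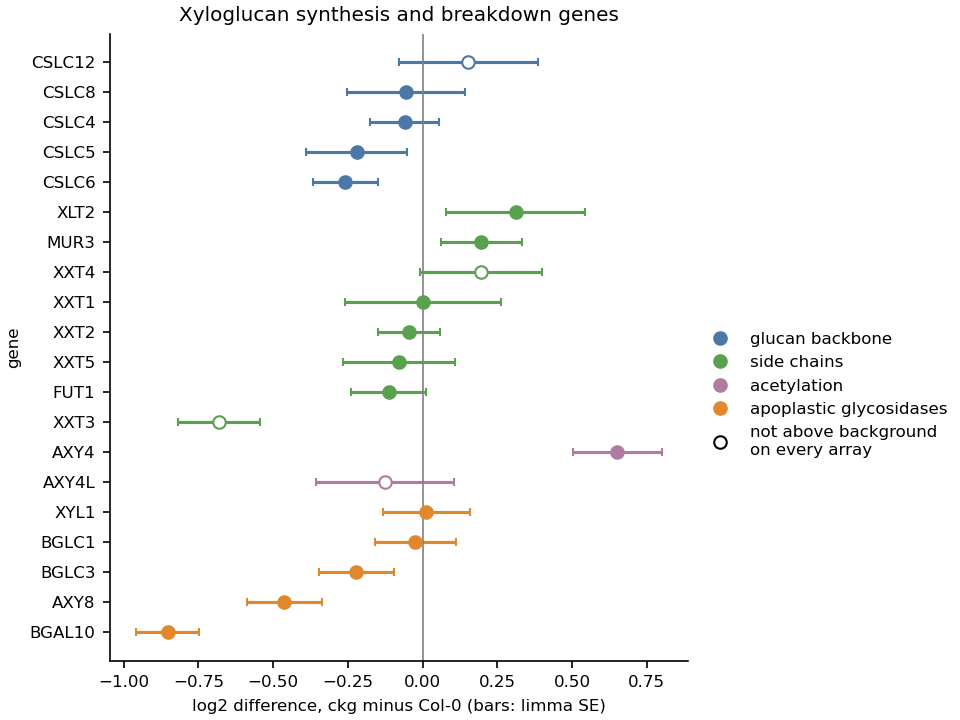
Log2 difference, ckg minus Col-0, of 15 synthesis and 5 breakdown genes of xyloglucan, with bars for the limma SE and colours for the step. Open circles are genes not above background on every array. AXY4 stands to the right, and BGAL10, XXT3 and AXY8 to the left.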

How the data were processed

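RNA of 5 samples was labelled with Cy3, and each was hybridised alone to an Agilent array. Groups came from the sample titles. Per the file headers, Agilent Feature Extraction 10.7.1.1 gave the deposited processed intensity, background-subtracted, detrended and not scaled between arrays, the raw median intensity of spot and background, and flags of 0 or 1 per spot, the other deposited values. The authors' series table holds deposited log2 values of unstated normalisation. They ranked as the raw median intensities did (Spearman correlation 1), with a median of 8.41 on each array, so they are levels, not ratios and not centred on genes.

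The values used were log2 processed intensities from which the 75th percentile of the array's non-control spots was subtracted. Outlier spots (35 to 197 per array) were left out, no spot was saturated (0), and spots of a probe were averaged. Of 43603 non-control probes 34358 matched a locus through RefSeq accessions of the TAIR10.1 table, which served for names and gene order only. A gene with several probes was represented by the brightest. The genotype difference was fitted with limma 3.58.1 in R 4.3.3 (lmFit, eBayes, two-sided, threshold 0.05), tested on simulated data. The 5 arrays leave 3 residual degrees of freedom, and this number sets the precision. Labels call the samples biological replicates. An exact permutation test over 2 and 3 arrays cannot go below p = 0.1, so none is given. No set test was made. The value of 1 root marker is not reported here.

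Named with values in every sample were XTH genes with an unadjusted p under 0.05 or groups that did not overlap, those above background in 1 genotype alone, and TCH4 and XTH24. Of the xyloglucan lists the 3 genes with the smallest p were named, and other genes were added after their values were seen. Members, lists and tests were chosen with earlier results of these data known. Alternatives changed background correction, scaling, filter, probe, outlier spots, values, variance model and replicate block, or left out 1 array. Bounds and second-probe differences from ckg replicates 1 and 2 alone were chosen after seeing the data.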

Additional observations from a re-analysis of the deposited data

How the results depend on the processing

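The count of XTH genes past the adjusted threshold was 0 under all 15 alternatives, as was that of xyloglucan genes. Over all genes, limma's count of 0 (3283 at an unadjusted p under 0.05) was 1 under median scaling, 3 each under normexp and the authors' series table, and 4 under a trended, robust variance. Fits without 1 array gave 0 to 8 (3 without ckg replicate 3, 8 without Col-0 replicate 1, 1 without Col-0 replicate 2). The 3283 genes at an unadjusted p under 0.05 became 1627 when Col-0 replicate 1 was left out, and 1723 when the other Col-0 array was. The median XTH difference was 0.13 with the filter on all 5 arrays and 0.24 with no filter, where signals on ckg replicate 3 near its floor enter and the median over all genes was 0.12. Fits without 1 array gave -0.026 (without Col-0 replicate 2) to 0.084 (without ckg replicate 1). The filter on all 5 arrays left 7 XTH genes whose groups did not overlap. Leaving out 1 array gave 12 to 15, but with fewer arrays the groups separate more easily for any gene. The share over all genes was not computed for those fits. At an unadjusted p under 0.05 stood 1 XTH gene that was lower with that filter and 5 with normexp. Of 176 pairs of a named gene and an alternative 4 turned sign. XTH5 did so with the series table (-0.062). TCH4 did so with the series table (0.0058), without ckg replicate 3 (0.0051) and with the replicate block (0.0051). The causes were not tested. All named genes except TCH4 had groups that did not overlap, so leaving out 1 array or blocking by replicate could not turn their sign. The filter and variance settings reuse the same values, so this count does not measure stability. Without 1 array TCH4 ran from -0.25 to 0.0051. With the replicate block, in which ckg replicate 3 has no partner, 0 genes passed and the median XTH difference was -0.02. Deviations of same-numbered arrays from their group means had correlations of -0.09 and -0.10. With 2 Col-0 arrays these deviations mirror each other, so the 2 values are not separate checks and cannot settle pairing. The numbers were not taken as pairs. Genes dimmer than the limit of ckg replicate 3 are the least certain.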
